A study of Mus musculus with 12 samples.

Results

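Integrins and laminins were described in sorted bone-forming cells of juvenile mice, adult mice and mice with induced *c-Myc*. The members were the 37 genes, of 32288 in the deposited count table, whose symbol names an integrin alpha chain (18 genes), an integrin beta chain (8 genes) or a laminin alpha, beta or gamma chain (11 genes). They were taken by symbol, with no filter on measured values. The set was chosen with earlier results of these data known.

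RNA was sequenced from mGFP+ cells that were negative for CD31, CD45 and TER119, the surface markers of endothelial cells, leukocytes and erythroid cells. The cells came from the metaphysis, the zone of new bone below the growth plate, of mice whose background was mixed C57BL/6–129×1/Sv. All 4 groups carried *Osx-CreERT2* and the *mTmG* reporter and were given tamoxifen, which in cells expressing *Osx* (*Sp7*) replaces membrane tdTomato with membrane GFP. Juvenile *Osx*+ cells (n = 4) were from mice of 3 weeks and adult *Osx*+ cells (n = 4) from mice of 8 weeks. Each of these libraries pooled 2 male mice, collected 2 days after tamoxifen on 3 consecutive days, with the shaft cut about 2 mm from the growth plate. The *c-Myc* group (n = 2) also carried *LSL-tTA* and *Col1a1::TetO–c-Myc*, so that Cre recombination turned on the transgene. The *c-Myc* + *R172H* group (n = 2) carried in addition *Trp53-LSL-R172H*, a dominant-negative mutant of p53. Both induced groups were given tamoxifen 2 times, against 3 in the controls, and were collected 7 days later with the shaft cut about 5 mm from the growth plate. Their titles carry an age of 3 weeks, the age at induction in the methods, while the dissection protocol gives 5 weeks, and 7 days do not fill that gap. The protocol names both sexes for these groups, while other statements of the study give only males for RNA-seq, so their sex is not settled. In the methods, inducible mice or pregnant females drank doxycycline or tetracycline in sucrose water against leaky transgene expression, and this ended before analysis. No such treatment is stated for the control groups. Tamoxifen treatments, the time after them, the drinking water and the length of bone taken thus differ between the induced and the juvenile groups. The age at dissection as the protocol gives it and possibly sex differ too. The parts of all these in a difference cannot be told apart.

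Integrins are membrane receptors made of one alpha and one beta chain. Outside the cell they hold matrix proteins or partner cells, and inside it they are linked by talin, kindlins and other adaptors to actin and to kinases. The alpha chain largely sets the ligand: some bind collagen, some bind proteins with an Arg-Gly-Asp (RGD) motif such as fibronectin and osteopontin, some bind laminin, and some are found mainly on leukocytes. Laminins are secreted trimers of an alpha, a beta and a gamma chain that build the basement membranes under epithelia and around vessels, muscle fibres, fat cells and Schwann cells. Osteoblasts adhere to the collagen and fibronectin of bone mainly through beta1 integrins, and marrow stromal cells are known to secrete laminins that contain the alpha4 chain.

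Promoter windows from 250 bases before to 50 bases after the start of a gene were held by the RefSeq table of GRCm38.p6 for 23 of the 37 members. The windows of 4 members are given because they stand for both directions of the difference between the *c-Myc* and juvenile libraries: *Itga4* and *Lama5* were the members called higher, and *Itga11* and *Lamb1* were the members called lower with the smallest adjusted p. They are written 5′ to 3′ on the strand of the gene, with GC boxes in capitals, meaning GGGCGG or its reverse complement CCGCCC.
*Itga4* at chr2:79255176-79255475, plus strand: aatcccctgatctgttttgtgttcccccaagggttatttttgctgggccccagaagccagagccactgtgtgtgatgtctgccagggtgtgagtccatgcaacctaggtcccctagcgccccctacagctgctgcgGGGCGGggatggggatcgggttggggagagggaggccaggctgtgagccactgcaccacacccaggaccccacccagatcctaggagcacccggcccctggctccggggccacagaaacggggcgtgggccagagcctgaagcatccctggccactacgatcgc
*Lama5* at chr2:180225810-180226109, minus strand: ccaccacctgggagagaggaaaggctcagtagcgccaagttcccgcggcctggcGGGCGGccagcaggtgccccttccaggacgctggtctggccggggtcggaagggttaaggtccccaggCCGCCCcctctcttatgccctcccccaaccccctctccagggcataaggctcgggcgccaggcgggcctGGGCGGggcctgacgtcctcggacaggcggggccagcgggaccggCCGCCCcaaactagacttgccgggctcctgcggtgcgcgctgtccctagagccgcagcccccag
*Itga11* at chr9:62677605-62677904, plus strand: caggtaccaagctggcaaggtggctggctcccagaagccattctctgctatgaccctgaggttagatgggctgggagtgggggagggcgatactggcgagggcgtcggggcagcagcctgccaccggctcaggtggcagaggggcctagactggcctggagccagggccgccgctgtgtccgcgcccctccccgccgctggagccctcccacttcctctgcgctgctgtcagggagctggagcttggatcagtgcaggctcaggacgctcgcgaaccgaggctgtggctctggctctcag
*Lamb1* at chr12:31265043-31265342, plus strand: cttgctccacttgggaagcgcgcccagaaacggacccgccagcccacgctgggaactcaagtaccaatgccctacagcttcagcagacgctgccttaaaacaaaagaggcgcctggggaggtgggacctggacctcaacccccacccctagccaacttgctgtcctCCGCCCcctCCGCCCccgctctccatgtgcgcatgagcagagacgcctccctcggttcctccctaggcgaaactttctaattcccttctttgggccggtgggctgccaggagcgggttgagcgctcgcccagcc
The *Lama5* window held 4 GC boxes, the *Lamb1* window 2, the *Itga4* window 1 and the *Itga11* window 0. Over all members with a window, 11 of 23 genes had at least 1 GC box, while 35.7% of the 32851 windows of the table held one. The canonical E-box CACGTG, which is its own reverse complement and the letters best known for MYC-MAX binding, was in 0 of the 26 member windows and in 7.15% of all windows. The TATA letters TATAAA, on either strand, were in 0 member windows and in 13.6% of all windows. A match of letters is a description of the window and not a binding site, and the absence of a match covers these 300 bases only.

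The libraries held between 9066154 and 15684412 counts. Levels are CPM, counts scaled to library size after TMM normalization, which sets the typical gene to the same level in every library. Of all counts, *Col1a1* took 33.4% to 39.08% in juvenile, 21.36% to 34.15% in adult, 9.142% and 11.25% in *c-Myc* and 5.609% and 5.831% in *c-Myc* + *R172H* libraries. The noncoding transcript *Gm26917* took 4.702% to 10.49% in the control libraries and 26.52% to 29.42% in the induced ones. *Myc* stood at 39.77 to 52.2 CPM in controls and at 623.7 to 747.1 CPM in the 4 induced libraries. All 10 osteoblast markers were above 3 counts in every library.

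**Figure D1:**
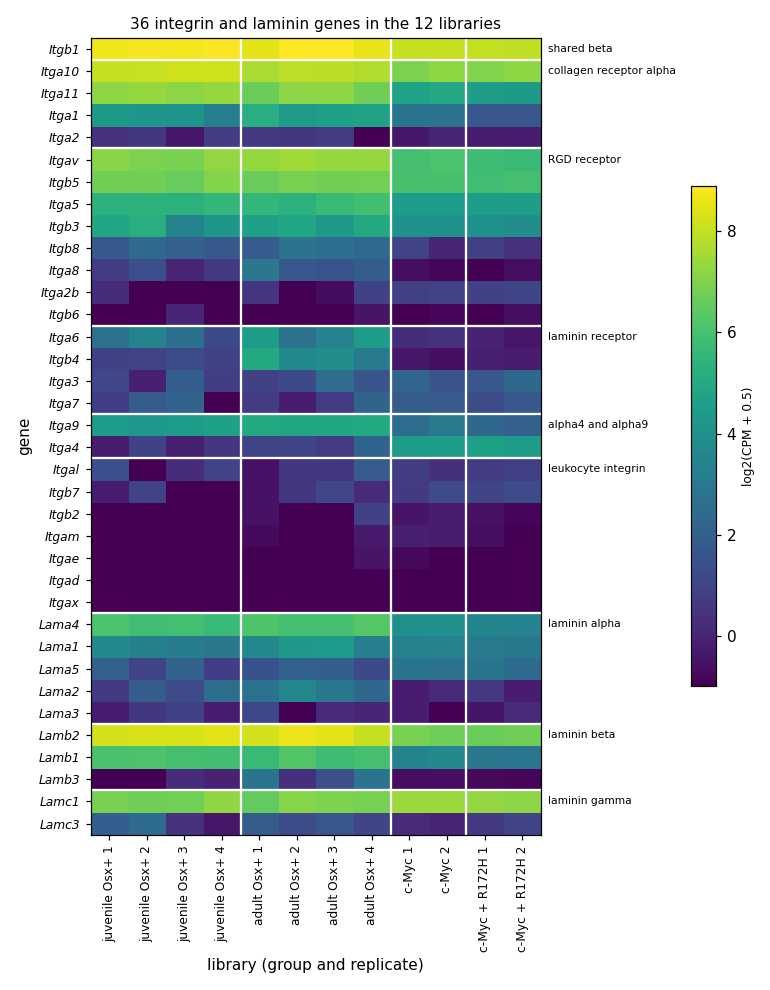
Level of 36 members (rows, grouped by role) in the 12 libraries (columns) as log2(CPM + 0.5), with the darkest colour at 0 reads. *Itgb1*, *Itga10* and *Lamb2* were the brightest rows in the control libraries, and *Itga4* was bright in the 4 induced libraries.

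A small number of chains carried most of the signal. Per kilobase of exon, *Itgb1*, the beta chain shared by most matrix receptors, was the highest member in every group, at 106 ± 4.39 CPM per kb (SD, n = 4) in juvenile, 103 ± 14.3 (SD, n = 4) in adult, 63.9 ± 0.0960 (SD, n = 2) in *c-Myc* and 61.5 ± 0.497 (SD, n = 2) in *c-Myc* + *R172H* libraries. In juvenile cells the next were *Itga10*, a collagen receptor chain, at 53.1 ± 2.85 CPM per kb and *Lamb2*, the beta2 laminin chain, at 52.7 ± 3.99, which did not differ beyond their spread. *Itgb5*, a beta chain that pairs with *Itgav*, followed at 31.4 ± 4.36 CPM per kb and overlapped *Itga11*, the other main collagen receptor chain, at 29.8 ± 1.59. Then came *Lamc1*, the gamma chain of most laminins, at 14.7 ± 2.51 CPM per kb and *Itgav* at 12.5 ± 1.60, which also overlapped. *Itga5*, the fibronectin receptor chain, had 8.50 ± 0.534 CPM per kb, *Lamb1* 6.42 ± 0.450 and *Lama4* 4.89 ± 0.518. In both induced groups *Lamc1* followed *Itgb1* and *Itga10* by its mean. It stood above *Lamb2* in both *c-Myc* libraries, with 20.5 ± 0.201 against 18.2 ± 1.83 CPM per kb, and overlapped it in *c-Myc* + *R172H* libraries, with 18.0 ± 1.10 against 17.1 ± 0.495 CPM per kb.

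At the low end, *Itgad* and *Itgax*, chains of leukocyte integrins, were at 0 counts in all 12 libraries, which allows up to 3 counts in each, or 0.137 to 0.417 CPM. *Itgae*, *Itgam*, *Itgb2* and *Itgb6* did not pass the filter on low counts in any comparison, and their highest count in a library was 13, for *Itgb2*. Of the 37 members, 21 were above 3 counts in every juvenile library, 24 in every adult, 28 in every *c-Myc* and 29 in every *c-Myc* + *R172H* library. These counts cannot be compared between groups, since the control groups had to pass in 4 libraries and the induced ones in 2. The 3 counts also stood for 0.274 to 0.417 CPM in control libraries but 0.137 to 0.17 CPM in induced ones. Summed over all members, the level was 1814 ± 85.8 CPM (SD, n = 4) in juvenile, 1830 ± 164 (SD, n = 4) in adult, 965.1 ± 19.4 (SD, n = 2) in *c-Myc* and 891.3 ± 1.37 (SD, n = 2) in *c-Myc* + *R172H* libraries. The control groups overlapped, and both induced groups lay below them. In such bulk libraries, fewer cells of a type and less RNA per cell cannot be told apart.

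The first comparison asked how the cells of growing and of mature bone differ. Between juvenile and adult cells none of the main osteoblast receptors and laminins was called different, and 1 member, *Itgb4*, was lower in juvenile cells. *Itgb4* encodes the beta4 chain, which pairs with *Itga6* in the laminin receptor of hemidesmosomes. Fold changes are juvenile over adult, tested with edgeR's quasi-likelihood test and called at a Benjamini-Hochberg (BH) adjusted p below 0.05 over all 11345 genes tested. Of the 24 members tested, 1 was called lower and 0 were called higher, where 3.23% of all genes were called lower and 1.89% higher. The test at an unadjusted p below 0.05 gave 1 member higher and 8 lower, and DESeq2 called 0 higher and 4 lower (*Itga6*, *Itga9*, *Itgb4*, *Lamb3*). The median log2 fold change was -0.23 over the members and 0.00093 over all genes tested.

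*Itgb4* had 1.37, 1.547, 1.947 and 1.366 CPM in the juvenile libraries and 32.18, 12.64, 14.1 and 7.885 CPM in the adult ones. The groups did not overlap, and the adult libraries spanned a wide range. The log2 fold change was -3.44 ± 0.41 (SE) with an adjusted p of 0.000363, and it was between -3.67 and -2.89 over the 15 alternative settings, all of which kept the call. Its partner *Itga6* had 6.117, 10.11, 5.562 and 1.863 CPM in juvenile and 23.18, 5.98, 9.958 and 21.31 CPM in adult libraries. The 2 groups overlapped through adult replicates 2 and 3. The log2 fold change of -1.36 ± 0.51 (SE) missed the threshold at an adjusted p of 0.165, and without adult replicate 2 it was -1.61 with an adjusted p of 0.0372. DESeq2, with all 8 libraries, also called *Itga6* lower. Over all alternatives the adjusted p of *Itga6* was between 0.0372 and 0.395.

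*Lamb3*, a laminin chain of epithelial basement membranes that is a ligand of this receptor, did not pass the filter on low counts in the fit as reported. Among the alternatives, *Lamb3* was called lower with no filter, with DESeq2 and with all 12 libraries in the fit. The same call came without juvenile replicate 3 and without adult replicate 2. It had 0, 0, 0.6952 and 0.4968 CPM in juvenile and 6.477, 0.7899, 2.198 and 6.286 CPM in adult libraries, and the groups did not overlap. *Lama3*, an alpha chain of epithelial laminins, had at most 1.72 CPM in any library and overlapped between the ages.

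Markers of growth plate chondrocytes were set beside these members. Of the 9 markers, only *Col2a1*, the cartilage collagen that made up most of the sum, was called, with a log2 fold change of -1.92 ± 0.43 (SE, BH-adjusted p = 0.035), and *Col10a1*, the collagen of hypertrophic chondrocytes, had 0.66 ± 0.41 (SE, BH-adjusted p = 0.462). The markers summed to 20400, 25400, 24000 and 8540 CPM in juvenile and to 123000, 33600, 54000 and 72400 CPM in adult libraries 1 to 4, with none at 0. *Itga6* and *Lamb3* were highest in adult libraries 1 and 4, as were the chondrocyte markers and the 6 Schwann cell markers, which summed to 56.8, 23.9, 31.4 and 48.9 CPM in adult and to 18.5 to 19.9 CPM in juvenile libraries. *Itgb4* was highest in adult library 1 but lowest in adult library 4. The 6 epithelial markers summed to 0 to 1.83 CPM in juvenile and 1.16 to 3.73 CPM in adult libraries, with *Epcam*, *Krt5* and *Cdh1* at 0 in all juvenile libraries. The part of these cells in the result was not tested. *Itgb4* shares 537 bases of exon with *B230344G16Rik* on the opposite strand, and the strand setting of the counting is not stated.

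**Figure D2:**
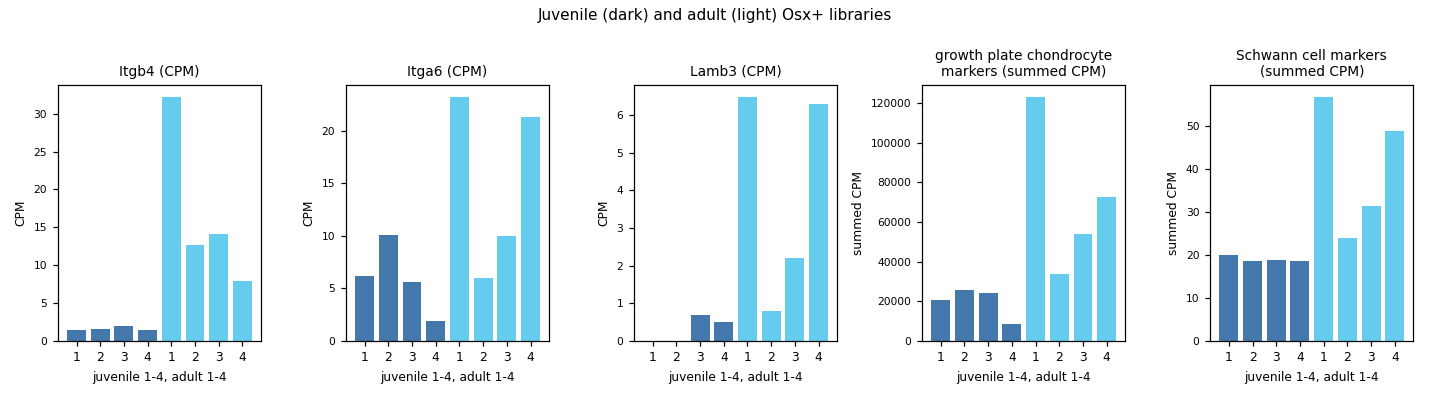
Bars give CPM of *Itgb4*, *Itga6* and *Lamb3*, and the summed CPM of chondrocyte and Schwann cell markers, in juvenile libraries 1 to 4 (dark) and adult libraries 1 to 4 (light), each on its own axis from 0. *Itgb4* had at least 7.885 CPM in each adult library and at most 1.947 CPM in each juvenile one, and *Itga6*, *Lamb3* and both marker sums were highest in adult libraries 1 and 4.

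The shared chain *Itgb1* did not pass the test between the ages, with 432.8 ± 17.9 CPM (SD, n = 4) in juvenile and 419.7 ± 58.5 CPM in adult libraries and a log2 fold change of 0.04 ± 0.12 (SE, BH-adjusted p = 0.918), a value that turned to -0.20 when libraries were scaled by their totals. *Itgav* had 134.4 ± 17.1 CPM in juvenile and 164.4 ± 9.56 CPM in adult libraries, with a log2 fold change of -0.30 ± 0.12 (SE, BH-adjusted p = 0.167). *Itga5* had 41.94 ± 2.63 and 49.69 ± 7.52 CPM, with a log2 fold change of -0.25 ± 0.14 (SE, BH-adjusted p = 0.337). The juvenile and adult libraries did not overlap for *Itgav* and overlapped for *Itga5*.

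*Lamb1* had 63.7 ± 4.46 CPM in juvenile and 61.38 ± 9.78 CPM in adult libraries, with a log2 fold change of 0.05 ± 0.13 (SE, BH-adjusted p = 0.899). *Lamc1* had 121.3 ± 20.7 and 117.2 ± 18.5 CPM, with a log2 fold change of 0.04 ± 0.14 (SE, BH-adjusted p = 0.914). Scaled by library totals these values became -0.19 and -0.20, where the median of all genes also fell by 0.24 on the log2 scale. For both laminin chains the age difference was smaller than the spread between replicates. The remaining members tested had log2 fold changes between -1.63 and 0.315 and were not called, with 16 of the 24 tested members below 0. Among these, *Itga10* had 275.5 ± 14.8 CPM in juvenile and 220.3 ± 18.6 CPM in adult libraries (SD). *Itga9* went the other way, with 21.59 ± 2.52 and 31.04 ± 1.42 CPM (SD). For both, the juvenile and adult libraries did not overlap.

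The second comparison asked what induction of *c-Myc* does to these cells. In *c-Myc* libraries the collagen receptor chains *Itga10*, *Itga11* and *Itga1*, the RGD receptor chains *Itgav*, *Itga5*, *Itgb8* and *Itga8*, the laminin receptor chains *Itga6* and *Itgb4*, the tenascin and osteopontin receptor chain *Itga9*, and the laminin chains *Lamb1*, *Lamb2*, *Lama4* and *Lama2* were lower than in juvenile cells. *Itga4*, the chain of the VCAM1 and fibronectin receptor, was 26.4-fold higher, and the laminin chain *Lama5* 2.46-fold higher. The fit held the 8 libraries of the juvenile and both induced groups, and a call required BH-adjusted p below 0.05 together with a log2 change of 1 or more in either direction. Of the 30 members tested, 14 (46.7%) were called lower and 2 (6.67%) higher, where 16% of the 12588 genes tested were called lower and 18.4% higher. The median log2 fold change was -1.10 over the members and 0.04 over all genes. DESeq2 gave the same counts of 14 lower and 2 higher. The juvenile libraries are the same ones as in the age comparison.

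These values depend on the scaling of the libraries. With libraries scaled by their totals, the median of all genes moved to 0.87 on the log2 scale and that of the members to -0.29, so that the members lay 1.16 below all genes, against 1.14 under TMM. The counts of calls then became 4 lower and 5 higher. After removal of that median, all 18 members given with statistics for this comparison kept the sign of their difference. A change of scaling moves all genes by nearly the same amount. The kept signs, and the likeness of 1.16 and 1.14, were thus fixed in advance and do not back the calls. The changes below are therefore changes relative to the typical gene.

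**Figure D3:**
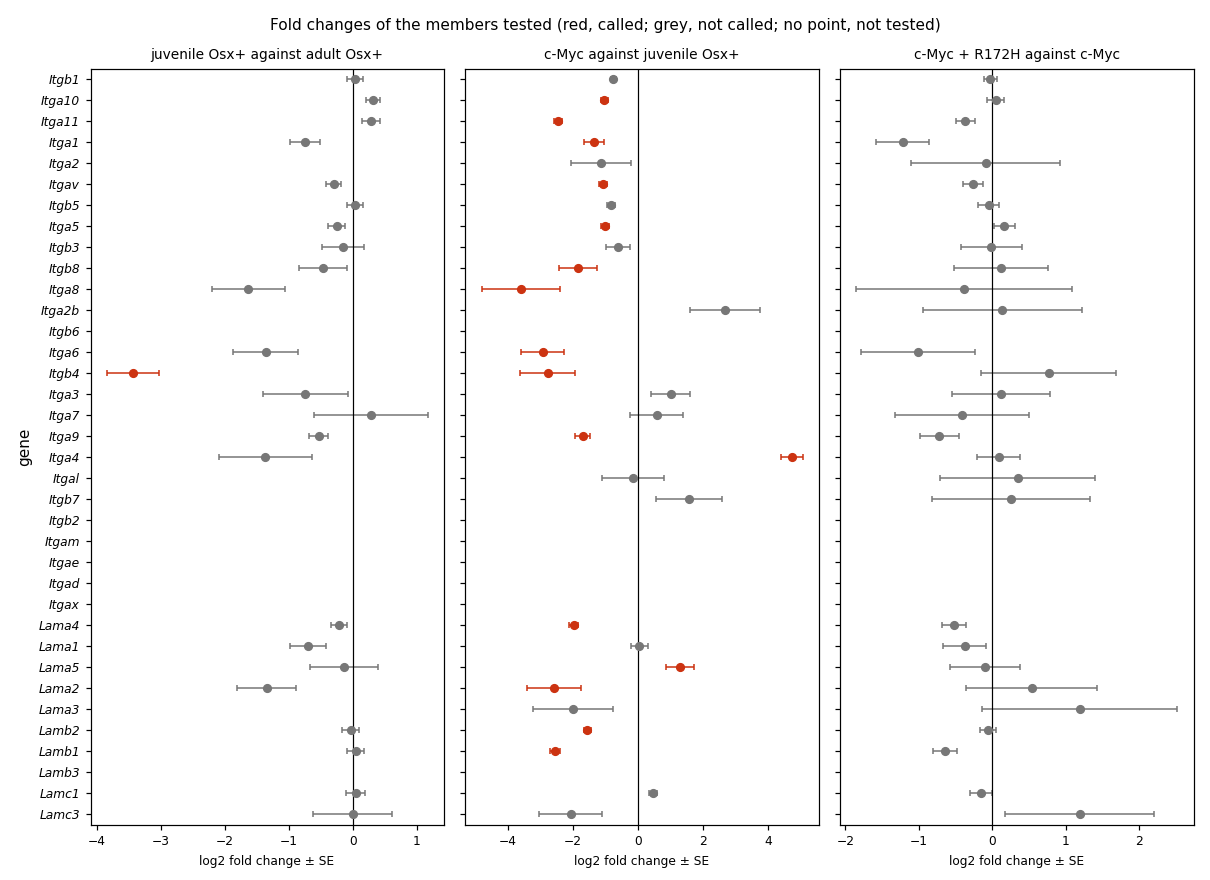
Log2 fold change (points) with its SE (bars) of the members tested, in 3 panels: juvenile over adult, *c-Myc* over juvenile, and *c-Myc* + *R172H* over *c-Myc*. Red points were called, of which there was 1 in the first panel, 16 in the second and 0 in the third, and members with a row but no point were not tested.

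Among the chains of collagen receptors, 3 of 4 were called lower. *Itga11*, the alpha11 chain that binds fibrillar collagen, had 146.9, 160.7, 144.9 and 159.1 CPM in juvenile, 25.33 and 31.06 CPM in *c-Myc* and 22.14 and 20.53 CPM in *c-Myc* + *R172H* libraries. The groups were far apart, with a log2 fold change of -2.46 ± 0.12 (SE, BH-adjusted p = 1.97e-08), which is a 5.51-fold lower level. *Itga10*, a chain known from cartilage, had 259.9, 265.9, 286.2 and 289.9 CPM in juvenile and 123.7 and 149.1 CPM in *c-Myc* libraries. Its log2 fold change of -1.03 ± 0.11 (SE, BH-adjusted p = 5.68e-06) was just past the fold required. It was under it with no filter on low counts (-0.98), with the replicate block (-0.99), without *c-Myc* replicate 1 (-0.90) and by library totals (-0.20). *Itga10* shares 1739 bases of exon with *Gm42957* on the same strand.

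*Itga1*, the alpha1 chain, which prefers collagen IV, had 20.73, 17.85, 17.1 and 8.942 CPM in juvenile and 6.755 and 6.291 CPM in *c-Myc* libraries, with a log2 fold change of -1.34 ± 0.31 (SE, BH-adjusted p = 0.00286). Juvenile replicate 4 was the lowest of its group and still above both *c-Myc* libraries. *Itga2*, the fourth chain of this class, had at most 1.242 CPM in a juvenile or *c-Myc* library and was not called. Within a library, the ratio of *Itga10* to *Itga11* per kb, in which the scaling has no part, was 1.79 ± 0.132 (SD, n = 4) in juvenile, 1.78 ± 0.230 (SD, n = 4) in adult, 4.79 ± 0.0582 (SD, n = 2) in *c-Myc* and 6.41 ± 0.975 (SD, n = 2) in *c-Myc* + *R172H* libraries. The 2 main collagen receptor chains thus fell by unequal amounts.

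The beta1 chain *Itgb1* had 410.7, 433.7, 432.1 and 454.5 CPM in juvenile and 260.5 and 261 CPM in *c-Myc* libraries, with no overlap. Its log2 fold change of -0.75 ± 0.08 (SE, BH-adjusted p = 6.03e-06) passed on the adjusted p but stayed under the fold required, and by library totals it turned to 0.09. It was 1 of 3 members in that position, beside *Itgb5* and *Lamc1*.

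**Figure D4:**
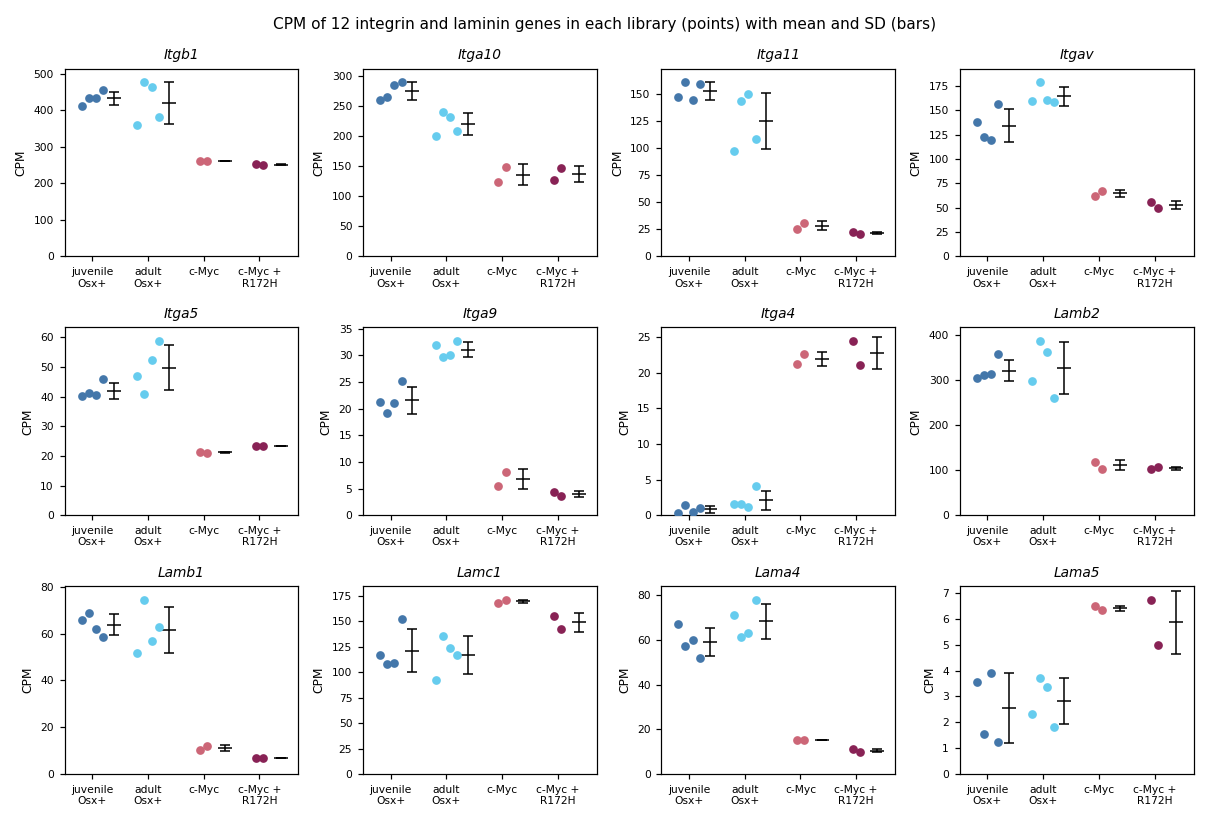
CPM of 12 members in each library (points) with the mean and SD of each group (bars), every axis starting at 0. The induced libraries lie below the controls for *Itgb1*, *Itga10*, *Itga11*, *Itgav*, *Itga5*, *Itga9*, *Lamb2*, *Lamb1* and *Lama4* and above them for *Itga4* and *Lama5*.

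Among the RGD receptor chains, 4 of 7 tested were called lower and 0 higher. *Itgav*, the alphav chain of the vitronectin and osteopontin receptors, had 138.4, 122.6, 119.7 and 157 CPM in juvenile and 62.3 and 67.44 CPM in *c-Myc* libraries, with a log2 fold change of -1.07 ± 0.13 (SE, BH-adjusted p = 1.49e-05). Without juvenile replicate 4 it was -0.9955 and just short of the fold required. *Itga5*, the alpha5 chain, had 40.08, 41.26, 40.6 and 45.83 CPM in juvenile and 21.36 and 20.97 CPM in *c-Myc* libraries. Its log2 fold change was -1.01 ± 0.13 (SE, BH-adjusted p = 2.98e-05), and it was under the fold required in 7 of 16 alternatives. These were library totals (-0.17, BH-adjusted p = 0.375), all genes left in (-0.95), a minimum of 10 counts in each library (-0.998), all 12 libraries in a fit (-0.99), the replicate block (-0.97), and the fits without juvenile replicate 4 (-0.9669) or without *c-Myc* replicate 2 (-0.9966). For both *Itgav* and *Itga5*, juvenile and *c-Myc* libraries did not overlap.

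*Itgb8*, a chain that activates latent TGF-beta together with *Itgav*, had 3.013, 4.745, 3.615 and 2.981 CPM in juvenile and 1.506 and 0.51 CPM in *c-Myc* libraries. The log2 fold change was -1.83 ± 0.58 (SE, BH-adjusted p = 0.0185), and without *c-Myc* replicate 2 it was -1.27 and not called. *Itga8*, the nephronectin receptor chain, had 47 counts in the 4 juvenile libraries together and 4 counts in the 2 *c-Myc* libraries together. The ratio of *c-Myc* to juvenile CPM was 0.0772, with an exact 95% interval of 0.0202 to 0.211 that covers counting error only. Its log2 fold change of -3.59 ± 1.21 (SE, BH-adjusted p = 0.0247) was not called without *c-Myc* replicate 1 (-4.29) or without *c-Myc* replicate 2 (-3.15).

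*Itgb3*, the beta3 chain known from osteoclasts and platelets, had 29.58, 37.03, 10.15 and 18.01 CPM in juvenile and 15.97 and 15.87 CPM in *c-Myc* libraries, and it was not called. The juvenile libraries were spread on both sides of the *c-Myc* ones. The 8 osteoclast markers summed to 203 to 332 CPM in juvenile and to 83.9 and 105 CPM in *c-Myc* libraries, with 5 at 0 in juvenile libraries. Of the 3 tested, only *Ctsk* was called, lower, with a log2 fold change of -3.00 ± 0.16 (SE, BH-adjusted p = 3.33e-08). The part of osteoclasts in the level of *Itgb3* was not tested. *Itga2b*, the platelet partner of *Itgb3*, had 0.7304, 0, 0, and 0 CPM in juvenile and 1.324 and 1.473 CPM in *c-Myc* libraries and was not called. Of the 8 megakaryocyte and platelet markers, 7 were at 0 in both *c-Myc* libraries, and the list summed to 0.137 and 0.0567 CPM there.

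Of the 4 laminin receptor chains, 2 were called lower. *Itga6* had 6.117, 10.11, 5.562 and 1.863 CPM in juvenile and 0.7303 and 0.8501 CPM in *c-Myc* libraries, with a log2 fold change of -2.92 ± 0.66 (SE, BH-adjusted p = 0.00247). *Itgb4* had 55 counts in the juvenile libraries together and 9 in the *c-Myc* libraries together, with a log2 fold change of -2.77 ± 0.85 (SE, BH-adjusted p = 0.0153) that was not called without *c-Myc* replicate 1 (-3.14) or replicate 2 (-2.49). Both chains were already low in juvenile cells. *Itga3* and *Itga7*, the other laminin-binding alpha chains, had mean levels of 1.682 and 2.092 CPM in juvenile and of 3.375 and 3.133 CPM in *c-Myc* libraries, overlapped between the groups and were not called.

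All 9 growth plate chondrocyte markers were called lower in *c-Myc* libraries. They summed to between 8540 and 25400 CPM in juvenile libraries, to 543 and 345 CPM in *c-Myc* and to 167 and 163 CPM in *c-Myc* + *R172H* libraries, with all 9 above 3 counts in every library. Their part in the lower levels of *Itga10*, *Itga6* and *Itgb4* was not tested. Osteoblast markers summed to between 571000 and 840000 CPM in juvenile and to 99900 and 132000 CPM in *c-Myc* libraries, and marrow stromal markers to between 604 and 800 and to 207 and 297 CPM.

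*Itga4* showed the largest difference of all members. It had 4, 14, 3 and 8 counts in juvenile, 15, 14, 9 and 38 counts in adult, 464 and 399 counts in *c-Myc* and 533 and 426 counts in *c-Myc* + *R172H* libraries. In CPM these were 0.3652, 1.444, 0.4171 and 0.9935 in juvenile, 1.518, 1.58, 1.164 and 4.049 in adult, 21.18 and 22.61 in *c-Myc* and 24.38 and 21.13 in *c-Myc* + *R172H* libraries. Every induced library was above every control library. The log2 fold change of *c-Myc* over juvenile was 4.72 ± 0.33 (SE, BH-adjusted p = 2e-07) and stayed between 4.43 and 5.54 in the 15 alternatives that tested it. *Itga4* did not reach 10 counts in every library and was not tested under that filter.

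*Itga4* is best known from leukocytes and their precursors, so the leukocyte markers are set beside it. The 12 markers summed to 1.74 to 2.5 CPM in juvenile, 9.31 to 15.9 CPM in adult, 9.81 and 10.3 CPM in *c-Myc* and 6.68 and 3.42 CPM in *c-Myc* + *R172H* libraries. *S100a8*, *S100a9* and *Cd3e* were at 0 in both induced groups, *Ptprc*, which encodes CD45, had 5 and 7 counts in *c-Myc* and 3 and 1 in *c-Myc* + *R172H* libraries, and *Lyz2*, the highest marker, had 6.48 and 5.84 CPM in *c-Myc* libraries. In juvenile libraries *Ptprc* was at 0 and *Lyz2* had 0.274, 0.103, 0.973 and 0 CPM. Of the 5 leukocyte markers tested between *c-Myc* and juvenile libraries, only *Lyz2* was called. It was higher, with a log2 fold change of 4.23 ± 0.74 (SE, BH-adjusted p = 0.00038). The part of leukocytes in the level of *Itga4* was not tested. *Itga4* shares 1124 bases of exon with *Cerkl* on the opposite strand, and *Cerkl* had between 0 and 13 counts in a library.

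*Itga9*, the other chain of this small class, went the opposite way. It had 21.18, 19.08, 21 and 25.09 CPM in juvenile, 5.431 and 8.104 CPM in *c-Myc* and 4.391 and 3.621 CPM in *c-Myc* + *R172H* libraries, with a log2 fold change of -1.70 ± 0.23 (SE, BH-adjusted p = 5.75e-05). The ratio of *Itga4* to *Itga9* per kb rose from 0.0210 ± 0.0148 (SD, n = 4) in juvenile and 0.0363 ± 0.0216 (SD, n = 4) in adult to 1.84 ± 0.432 (SD, n = 2) in *c-Myc* and 3.13 ± 0.110 (SD, n = 2) in *c-Myc* + *R172H* libraries. *Itga4* thus exceeded *Itga9* in each of the 4 induced libraries and in none of the 8 controls.

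The leukocyte integrin chains gave few counts. Only *Itgal* and *Itgb7*, the partner of *Itga4* in the gut-homing receptor, passed the filter in this comparison, and neither was called. *Itgb7* had 0.3652, 1.547, 0 and 0 CPM in juvenile and 1.095 and 1.984 CPM in *c-Myc* libraries, which overlapped. *Itgb2* and *Itgam*, the chains of the Mac-1 receptor of myeloid cells, were at 0 in the 4 juvenile libraries and had 5 and 6, and 9 and 6 counts in the *c-Myc* libraries. The sum of the 7 chains of this class was at most 5.647 CPM in any library. CD45+ cells had been removed by the sort, and its part in these levels was not tested.

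Among laminins, the beta chains *Lamb1* and *Lamb2* and the alpha chain *Lama4* fell, while the gamma chain *Lamc1* was not called. *Lamb1* had 65.74, 68.7, 61.87 and 58.49 CPM in juvenile, 10.18 and 12.18 CPM in *c-Myc* and 6.998 and 6.944 CPM in *c-Myc* + *R172H* libraries. Its log2 fold change was -2.54 ± 0.15 (SE, BH-adjusted p = 5.41e-08), a 5.8-fold lower level. *Lamb2* had 303.4, 310.1, 313.1 and 356.7 CPM in juvenile and 118.7 and 103 CPM in *c-Myc* libraries, with a log2 fold change of -1.55 ± 0.10 (SE, BH-adjusted p = 1.35e-07). *Lama4*, the alpha chain of vessel and stromal laminins, had 67.01, 57.15, 60.07 and 52.04 CPM in juvenile and 15.24 and 15.36 CPM in *c-Myc* libraries, with a log2 fold change of -1.97 ± 0.15 (SE, BH-adjusted p = 3.53e-07). None of these groups overlapped, and each call held in every alternative but one, in which *Lamb2* had a log2 fold change of -0.71 with libraries scaled by their totals.

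*Lama2*, the chain of muscle and nerve basement membranes, had 1.096, 3.301, 1.947 and 5.464 CPM in juvenile and 0.3651 and 0.6234 CPM in *c-Myc* libraries, with a log2 fold change of -2.58 ± 0.83 (SE, BH-adjusted p = 0.019). It was not called without *c-Myc* replicate 1 (-2.24) or replicate 2 (-3.01). *Lama5*, an alpha chain of epithelial and vessel laminins, had 3.561, 1.547, 3.893 and 1.242 CPM in juvenile, 2.328, 3.724, 3.362 and 1.811 CPM in adult, 6.481 and 6.347 CPM in *c-Myc* and 6.723 and 5.009 CPM in *c-Myc* + *R172H* libraries. All induced libraries were above all controls. The log2 fold change of 1.30 ± 0.43 (SE, BH-adjusted p = 0.0208) was not called without juvenile replicate 2 (1.11), *c-Myc* replicate 1 (1.29) or *c-Myc* replicate 2 (1.32).

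*Lamc1* had 116.6, 108, 108.9 and 151.9 CPM in juvenile, 92.09, 136, 123.9 and 116.7 CPM in adult, 168.5 and 170.8 CPM in *c-Myc* and 155.5 and 142.6 CPM in *c-Myc* + *R172H* libraries. Both *c-Myc* libraries lay above all controls, and the log2 fold change of 0.46 ± 0.13 (SE, BH-adjusted p = 0.00818) was below the fold required. By library totals it was 1.30 and past it. *Lama1*, the chain of embryonic laminin, had 9.53 ± 2.51 CPM (SD, n = 4) in juvenile and 10.06 ± 0.0328 CPM (SD, n = 2) in *c-Myc* libraries, which overlapped. *Lama3* and *Lamc3* were tested and not called, and *Lamb3* was not tested.

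Since a laminin trimer holds a beta and a gamma chain each, their ratio within a library was taken. The level of *Lamb1* and *Lamb2* together over that of *Lamc1*, per kb, was 4.09 ± 0.426 (SD, n = 4) in juvenile and 4.25 ± 0.566 (SD, n = 4) in adult libraries. It was 0.944 ± 0.0911 (SD, n = 2) in *c-Myc* and 0.993 ± 0.0883 (SD, n = 2) in *c-Myc* + *R172H* libraries. The lowest control library had 3.49 and the highest induced library 1.06, so the groups did not overlap. The ratio of *Lama4* to *Lamc1* per kb was 0.342 ± 0.0728 (SD, n = 4) in juvenile and 0.0618 ± 0.00025 (SD, n = 2) in *c-Myc* libraries. These ratios rest on transcripts and do not measure assembled trimers.

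**Figure D5:**
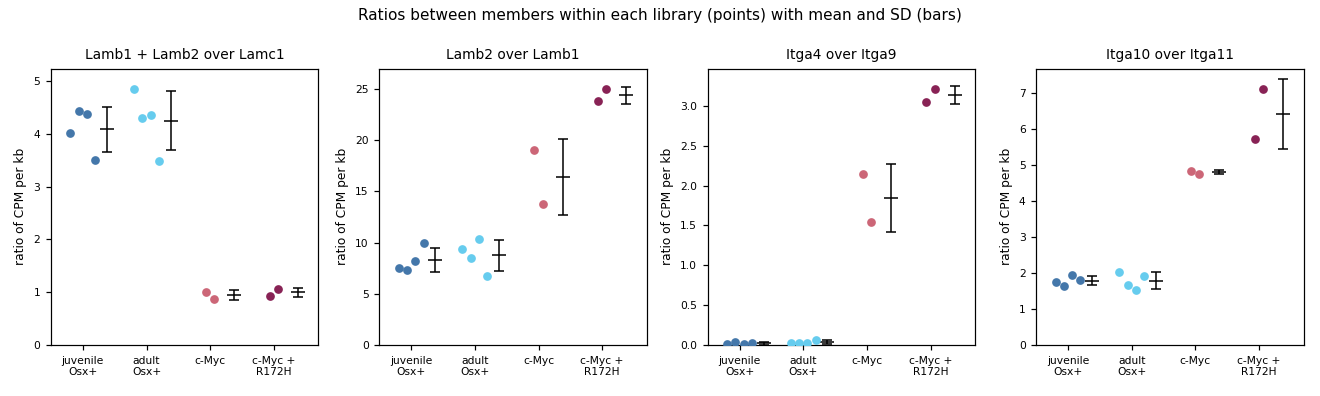
Ratios of CPM per kb between members within each library (points) with the mean and SD of each group (bars), on axes from 0. *Lamb1* + *Lamb2* over *Lamc1* was between 3.49 and 4.85 in controls and between 0.88 and 1.06 in induced libraries, and *Lamb2* over *Lamb1*, *Itga4* over *Itga9* and *Itga10* over *Itga11* were higher in each induced library than in any control.

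Endothelial and pericyte markers were set beside the vessel laminins. The 10 endothelial markers summed to 1.49 to 2.74 CPM in juvenile and to 7.76 and 9.29 CPM in *c-Myc* libraries. Most of the latter was *Egfl7*, at 5.93 and 7.42 CPM. *Pecam1*, which encodes the sorted-out CD31, was at 0 in juvenile libraries and had 12 and 5 counts in *c-Myc* ones. Of the 3 endothelial markers tested, 2 were called higher and 1 lower. *Egfl7* had a log2 fold change of 5.24 ± 0.65 (SE, BH-adjusted p = 2.48e-05). *Esam*, at 0 in juvenile libraries, had 5.60 ± 1.95 (SE, BH-adjusted p = 0.0353), and *Erg* had -1.95 ± 0.71 (SE, BH-adjusted p = 0.0345). The 8 smooth muscle and pericyte markers summed to 305 to 387 CPM in juvenile and to 230 and 248 CPM in *c-Myc* libraries, most of it *Cspg4*. *Rgs5*, a pericyte marker, went the other way, with 1.487 ± 1.34 CPM (SD, n = 4) in juvenile and 18.47 ± 3.85 CPM (SD, n = 2) in *c-Myc* libraries and a log2 fold change of 3.50 ± 0.61 (SE, BH-adjusted p = 0.000346). Of the 7 markers of this list that were tested, 1 was called higher and 1, *Acta2*, lower, and their median log2 fold change was 0.72. The part of these cells in the results for *Lama4* and *Lama5* was not tested.

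The third comparison asked what mutant p53 adds to *c-Myc*. No integrin or laminin was called different between *c-Myc* + *R172H* and *c-Myc* libraries with edgeR's quasi-likelihood test. Of the 30 members tested, 0 were called in either direction, where 0.461% of all genes were called lower and 0.00794% higher. At an unadjusted p below 0.05, 5 members were lower and 0 higher, and DESeq2 called 1 of 15 members, *Lamb1*. The median log2 fold change was -0.04 over the members and -0.0028 over all genes.

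*Lamb1* had 10.18 and 12.18 CPM in *c-Myc* and 6.998 and 6.944 CPM in *c-Myc* + *R172H* libraries, without overlap. The log2 fold change was -0.65 ± 0.16 (SE) at an adjusted p of 0.16, and the adjusted p lay between 0.0174 and 1 over 16 alternatives. *Itga1* had 6.755 and 6.291 CPM against 2.744 and 2.728 CPM, and *Lama4* 15.24 and 15.36 CPM against 11.02 and 9.919 CPM. These 2 members and *Lamb1*, named after their values were seen, were called when the juvenile libraries were left out of the fit, and again with the replicate block.

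The other fixed members were not called between the induced groups. *Itgb1* had a log2 fold change of -0.03 ± 0.09 (SE, BH-adjusted p = 1), which turned to 0.18 by library totals, *Itgav* one of -0.26 ± 0.14 (SE, BH-adjusted p = 1), and *Itga5* one of 0.16 ± 0.14 (SE, BH-adjusted p = 1). *Itga6*, at 0.7303 and 0.8501 against 0.5031 and 0.248 CPM, had a log2 fold change of -1.02 ± 0.78 (SE, BH-adjusted p = 1). *Lamc1* had one of -0.16 ± 0.15 (SE, BH-adjusted p = 1), which turned to 0.05 by library totals. *Itga4* did not differ beyond its spread, at 21.89 ± 1.01 and 22.75 ± 2.30 CPM (SD, n = 2 each).

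Genes that work with integrins and laminins were counted from lists chosen by function. Of the integrin-linked adaptors and kinases, 30 were tested in the *c-Myc* comparison, and 6 were called lower and 1 higher, where 16% of all genes were called lower and 18.4% higher. The share called lower was thus near that of all genes, and the list's median log2 fold change was -0.50. *Cav1*, *Lims2* and *Src* had the largest decreases, with log2 fold changes of -4.99 ± 1.36 (SE, BH-adjusted p = 0.00801), -3.75 ± 1.04 (SE, BH-adjusted p = 0.00859) and -2.57 ± 0.14 (SE, BH-adjusted p = 3.18e-08). *Src* is a kinase that works at adhesion sites, *Lims2* encodes PINCH2, a partner of integrin-linked kinase, and *Cav1* encodes caveolin-1. *Cav1* rested on 2 counts in the *c-Myc* libraries together against 61 in the juvenile ones, a CPM ratio of 0.0297 with an exact 95% interval of 0.00352 to 0.112. *Fermt3*, the kindlin of blood cells, was at 0 in the 4 juvenile libraries and had 29 and 20 counts in the *c-Myc* libraries, a level at least 2.95-fold higher than the floor of 3 counts in a juvenile library. In the age comparison, where 3.23% of all genes were called lower and 1.89% higher, 27 were tested and only *Dab2*, an endocytic adaptor, was called, with a log2 fold change of -1.06 ± 0.19 (SE, BH-adjusted p = 0.00443). Of the 30 tested for *c-Myc* + *R172H* only *Src* was called, with -0.85 ± 0.16 (SE, BH-adjusted p = 0.0349).

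Of the integrin ligands of bone matrix and stroma, 21 were tested in the *c-Myc* comparison, and 18 were called lower and 0 higher, where 16% of all genes were called lower. Their median log2 fold change was -2.04. The largest decreases were in *Edil3*, an RGD protein, at -4.48 ± 0.63 (SE, BH-adjusted p = 7.2e-05), *Thbs2*, a thrombospondin, at -3.12 ± 0.16 (SE, BH-adjusted p = 2.44e-08), and *Tnn*, tenascin-W, at -2.92 ± 0.20 (SE, BH-adjusted p = 2e-07). In the age comparison 21 were tested, with 4 called higher and 6 lower in juvenile cells, beside 1.89% and 3.23% of all genes. *Spp1*, which encodes osteopontin, had the largest increase at 1.23 ± 0.17 (SE, BH-adjusted p = 0.000662), followed by *Dmp1* at 1.04 ± 0.21 (SE, BH-adjusted p = 0.0122) and *Thbs2* at 0.82 ± 0.15 (SE, BH-adjusted p = 0.00617). *Edil3* at -2.05 ± 0.38 (SE, BH-adjusted p = 0.0116), the matricellular *Ccn2* at -1.61 ± 0.35 (SE, BH-adjusted p = 0.0407) and *Fbln5*, an elastic fibre protein, at -1.08 ± 0.20 (SE, BH-adjusted p = 0.00482) had the largest decreases. For *c-Myc* + *R172H*, 2 of 21 were called lower, *Thbs1* at -1.09 ± 0.16 (SE, BH-adjusted p = 0.0103) and *Thbs2* at -0.98 ± 0.17 (SE, BH-adjusted p = 0.0301).

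Laminin partners and non-integrin laminin receptors gave 10 lower and 1 higher of 26 tested in the *c-Myc* comparison, where 16% and 18.4% of all genes were called, with a median log2 fold change of -0.79. *Sgca* and *Sgce*, sarcoglycans of the dystroglycan complex, and *Nid2*, a nidogen that links laminin to collagen IV, had the largest decreases, at -2.90 ± 0.57 (SE, BH-adjusted p = 0.000962), -2.30 ± 0.28 (SE, BH-adjusted p = 1.77e-05) and -2.26 ± 0.40 (SE, BH-adjusted p = 0.00112). *Pomt1*, an enzyme that glycosylates dystroglycan, was higher at 1.26 ± 0.22 (SE, BH-adjusted p = 0.000442). In the age comparison 26 were tested, with *Sgca* called higher in juvenile cells at 1.45 ± 0.41 (SE, BH-adjusted p = 0.0495) and 3 called lower, beside 1.89% and 3.23% of all genes. These were *Sdc4* and *Sdc3*, heparan sulfate syndecans, at -1.50 ± 0.23 (SE, BH-adjusted p = 0.00518) and -0.53 ± 0.14 (SE, BH-adjusted p = 0.037), and *Cd151*, a tetraspanin partner of laminin-binding integrins, at -0.75 ± 0.17 (SE, BH-adjusted p = 0.0166). For *c-Myc* + *R172H*, edgeR called 0 of the 26, with 4 lower and 0 higher at an unadjusted p below 0.05.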

How the data were processed

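RNA was extracted from sorted mGFP+ metaphyseal cells and sequenced as 12 libraries with a directional kit. Per the labels and methods, the authors used bcl2fastq 2.20, cutadapt 4.6 for trimming, STAR 2.7.11a for alignment to mm10, and HTSeq 2.0.5 to count the reads that mapped uniquely to each gene. The deposited values are raw counts, not normalized. The strand setting of the counting is not given in the sources used here. Libraries were grouped by title. In the adult group the library names in the table carry other numbers than the titles, and the title numbers were used.

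Here, counts were tested in R 4.3.3 with edgeR 4.0.16 (TMM, filterByExpr, robust quasi-likelihood F test, Benjamini-Hochberg adjustment over all genes tested at 0.05). The age comparison used 8 libraries, and both other comparisons shared a fit of the 8 juvenile and induced libraries. An absolute log2 fold change of 1 was also required for *c-Myc* against juvenile, as in the study. The SE is the absolute log2 fold change over the square root of F, an approximation. Nothing states that all replicates were separate animals for the induced groups, so p-values measure the spread between these libraries. Within each group, replicates differed beyond sampling noise (chi-square per degree of freedom 5.45 to 136). CPM used TMM factors over all 12 libraries, and CPM per kb divided them by the union of exons in a GENCODE annotation of GRCm38, of another release than the one used for counting. Overlaps between exons come from the same annotation. A floor of 3 counts marked detection. Intervals and floors cover counting error only, as reads carry no molecular identifiers.

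The members and gene lists were chosen with earlier results of these data known. A member is given with statistics where it was called, or if it is *Itgb1*, *Itgav*, *Itga5*, *Itga6*, *Lamb1* or *Lamc1*. From each pathway list at most 3 called genes per direction and comparison are named, those of the largest change. Ratios between members, and values of single genes beside *Itga4*, were chosen after values were seen. Alternatives were RLE normalization, library totals, DESeq2 1.42.0, no filter, a minimum of 10 counts in each library, all 12 libraries in a fit, only the groups compared, a replicate block, and each library left out. The procedure was tested on simulated data. Same-numbered juvenile and adult libraries did not deviate together (correlations -0.0793 to 0.0535), so the numbers were not taken as pairs. The values of 1 member are not reported here, though it is in the counts over members.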

Additional observations from a re-analysis of the deposited data

Results flagged for a closer look

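In groups of 4 libraries, the highest or lowest library was compared with the others. A library was picked out when its gap to the nearest of the others took more of the range of the group than Dixon's critical value at the 95% level. Of 62 groups tested, 4 had such a library, and chance alone picks out about 1 in 20 groups. *Itga4* had 4.049 CPM in adult replicate 4, against 1.164 to 1.58 CPM in the other adult libraries, still far below the induced libraries. *Itgav* had 178.7 CPM in adult replicate 2, against 158.7 to 160.4 CPM in the others. *Itga2* was at 0 CPM in adult replicate 4, against 1.016 to 1.164 CPM in the others. *Itga2b* had 0.7304 CPM in juvenile replicate 1 and 0 in the other 3 juvenile libraries.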

How the results depend on the processing

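*Itgb4* in the age comparison and *Itga4*, *Itga11*, *Itga6*, *Lamb1* and *Lama4* in the *c-Myc* comparison kept their calls in each alternative that tested them. In the age comparison, the members called lower, 1 in the analysis as reported, numbered 5 by library totals (*Itga1*, *Itga9*, *Itgav*, *Itgb4*, *Lama2*), 4 with no filter, 2 with at least 10 counts in every library, 4 with DESeq2, 2 with all 12 libraries in the fit, and 1 to 4 with each library left out, 4 being reached without adult replicate 2. All genes called, 581 as reported, numbered 977 with no filter, 935 with DESeq2, 1094 with all 12 libraries and 284 to 885 with each library left out. By library totals, the log2 fold changes of *Itgb1*, *Lamb1* and *Lamc1* turned to -0.20, -0.19 and -0.20. With each library left out, they were between -0.029 and 0.11, -0.028 and 0.16, and -0.083 and 0.13.

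In the *c-Myc* comparison, 2 higher and 14 lower members became 5 and 4 by library totals, and 1 and 8 with at least 10 counts in every library, where only 15 members were tested. With each library left out they were 1 to 3 higher and 9 to 15 lower, with the fewest calls without either *c-Myc* library. *Itgb1* turned to 0.085 by library totals. In the *c-Myc* + *R172H* comparison, members called lower, 0 as reported, numbered 1 with no filter (*Itga1*), 1 with DESeq2 (*Lamb1*), 3 with only the 2 groups compared, and 0 to 1 with each library left out. All genes called, 59 as reported, numbered 12 by library totals, 222 with no filter, 201 with DESeq2, 22 with all 12 libraries, 629 with only the 2 groups compared and 8 to 87 with each library left out. By library totals, *Itgb1* turned to 0.18 and *Lamc1* to 0.055. The fits without a filter had a prior df of 605 in the age comparison and an infinite one in the others. The causes of these shifts were not tested.

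With the replicate block, 434 genes and 1 member, *Itgb4*, were called in the age comparison. In the *c-Myc* comparison the block gave 3 members higher and 14 lower, without *Itga10* (-0.99) and *Itga5* (-0.97) and with *Itga3*, *Itgb3* and *Lamc3* in addition. In the *c-Myc* + *R172H* comparison it called 3 members lower (*Itga1*, *Lama4*, *Lamb1*) and 326 genes in all. The deviations of same-numbered *c-Myc* and *c-Myc* + *R172H* libraries correlated at 0.175, but with 2 pairs the numbers were not taken as pairs. Depth limited the members of a few counts, such as *Itga8*, *Itgb4* and *Lama2* in *c-Myc* libraries.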
